A study of Mus musculus with 13 samples.

Results

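The clustered histone genes were taken as the rows of the deposited count table whose symbol begins with H1f, H2ac, H2bc, H3c or H4c followed by a digit. This gave 58 of the 21084 genes in the table: 6 linker histone H1 genes, 16 H2A genes, 14 H2B genes, 11 H3 genes and 11 H4 genes. The set was chosen by the levels of H2bc4 and H1f2, which were lower with IFNa (interferon alpha) after control antibody, so the values and calls of that comparison are given below as a description and not as a test. By position in mm39, 48 members lay on chromosome 13 between 21900592 and 23948389 and 9 on chromosome 3 between 96127181 and 96177448. H1f0 alone lay on chromosome 15, outside both clusters. One member, H2ac5-ps, is a pseudogene.

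Nucleosomes are built from the core histones H2A, H2B, H3 and H4, and linker histone H1 binds the DNA between them. Most genes of the clusters are replication-dependent: their transcription rises in S phase, when new DNA must be packaged, and their mRNAs end in a conserved stem-loop bound by SLBP instead of a poly(A) tail. H1f0 is different, being a replication-independent linker histone with a polyadenylated mRNA that is known from cells that have stopped dividing. Some clustered genes, among them H1f2 and H2bc4, are also known to give polyadenylated forms in non-dividing cells.

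Bulk RNA sequencing was done on gamma delta intraepithelial lymphocytes, T cells that reside between epithelial cells, sorted from the small intestine of WT mice. By the intraperitoneal route mice were given Armenian hamster IgG or 200 µg of UC7-13D5, which binds the gamma delta T cell receptor, and then 1 µg of IFNa or PBS intravenously 5 hours before cell isolation. The antibody was given 48 and 24 hours before isolation according to the treatment protocol, and the design text has "or" in place of "and". The 13 libraries formed 4 groups: IgG-PBS with 3 libraries, IgG-IFNa with 4, UC7-PBS with 3 and UC7-IFNa with 3. All mice thus received an antibody and an intravenous injection, and no group was left uninjected. The sample titles call each library a biological replicate. Strain, age, and whether a library came from 1 mouse were not given in the sources used here, so p-values measure the spread between libraries, which may be partly technical. Libraries were made with the SMART-Seq HT kit, which primes cDNA on poly(A), so the levels below are not those of all histone mRNA.

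Library totals ran from 19867201 to 26895876 estimated counts. Levels are in CPM, counts relative to library size, after scaling by edgeR's trimmed mean method (TMM). Trdc, the delta chain constant region, stood between 159 and 210.5 CPM in all 13 libraries. The interferon-induced genes separated the groups: Ifit3 was 1.44 to 6.19 CPM in the PBS libraries and 33.3 to 79.3 CPM with IFNa, and Irf7 was 98.0 to 151 and 353 to 523 CPM. UC7-IFNa library 2 stood apart, with Rn18s, a ribosomal RNA gene, at 1.14% of counts (0.0866% to 0.333% elsewhere) and 1.34% on small non-coding RNAs (0.103% to 0.433%). Its log2 CPM correlated across genes with its group mates at 0.940 and 0.943, and those correlated with each other at 0.984. Results that include it are therefore also given without it. The IgG-PBS libraries held Xist RNA (265 to 345 CPM) and nearly no Y-linked RNA, the UC7 libraries held Y-linked RNA (132 to 329 CPM) and nearly no Xist, and IgG-IFNa libraries 3 and 4 held both. Differences between antibody arms cannot be told apart from this difference, which also runs partly along IFNa after IgG.

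The RNA ends of the members differ in their annotated form, which bears on what an oligo(dT)-primed library can hold. The stem-loop was searched as GGCNCTTTTCAGNGCC in the GENCODE M21 transcript models (GRCm38), of which all 58 members had one. It was found in 29 members. In 17 of these the model ended 3 to 51 bases after the stem-loop, the replication-dependent form. In the other 12 the model ran on for 151 to 4884 bases. No stem-loop was found in 29 members, including H2bc4, whose model is spliced and holds AATAAA, the usual signal for polyadenylation. Of these 29, 10 had AATAAA in a model. Only the exact pattern was searched, so a differing stem-loop, or a model that stops before it, also counted as none. Members of these 3 kinds took 24.6%, 38.4% and 37.0% of all member counts. These 4 sites are printed as examples of both kinds of end, with the stem-loop in capitals:
H1f2 (16-base core at chr13:23739512.0-23739527.0, plus strand): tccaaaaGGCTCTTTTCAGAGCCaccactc
H2ac24 (16-base core at chr13:21833029.0-21833044.0, minus strand): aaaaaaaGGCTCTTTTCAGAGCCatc
H2ac18 (16-base core at chr3:96246032.0-96246047.0, plus strand): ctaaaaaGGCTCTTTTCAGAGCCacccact
H4c3 (16-base core at chr13:23698089.0-23698104.0, minus strand): aacaaaaGGCCCTTTTCAGGGCCacccaca
The model of H1f2 runs 840 bases past this point and that of H4c3 runs 454 bases, and those of H2ac24 and H2ac18 end after 3 and 35 bases. H1f2, H2ac24 and H2ac18 have the same 16 bases and H4c3 differs in the paired stem.

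Promoters were read from RefSeq (GRCm38.p6), 250 bases before to 50 bases after the start, and 51 of the 58 members had an entry. A member counted if any of its promoter entries held the motif, and the share of all promoters is over single entries. On either strand, CCAAT was in 43 of the 51 (84.3%, against 37.4% of all 32851 promoters) and TATAAA in 30 (58.8% against 13.6%). The octamer ATTTGCAT, known from H2B promoters, was in 11 (21.6% against 1.74%): 6 of 11 H2B and 5 of 15 H2A genes. The H1 box AAACACA was in 6 (11.8% against 7.18%), among them 4 of 6 H1 genes. The promoters of 3 members are shown, with matches to these motifs in capitals (ATTGG is CCAAT on the other strand). H1f2 was named by the rule, H2ac24 is the H2A gene with the highest CPM, and H2bc14 is the member that hardly varied between libraries:
H1f2 (chr13:23738557-23738856, plus strand): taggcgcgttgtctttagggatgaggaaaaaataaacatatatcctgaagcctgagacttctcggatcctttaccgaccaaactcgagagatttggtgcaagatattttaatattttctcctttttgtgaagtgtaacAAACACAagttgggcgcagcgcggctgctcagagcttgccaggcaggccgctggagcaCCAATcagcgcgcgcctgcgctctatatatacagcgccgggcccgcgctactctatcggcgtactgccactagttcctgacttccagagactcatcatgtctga
H2ac24 (chr13:21833426-21833725, minus strand): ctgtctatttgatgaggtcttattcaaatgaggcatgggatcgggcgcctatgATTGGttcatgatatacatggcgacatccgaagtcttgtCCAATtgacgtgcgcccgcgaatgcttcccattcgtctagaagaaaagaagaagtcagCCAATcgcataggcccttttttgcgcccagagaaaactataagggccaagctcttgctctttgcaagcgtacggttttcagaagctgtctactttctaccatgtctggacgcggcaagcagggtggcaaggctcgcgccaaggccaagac
H2bc14 (chr13:21721794-21722093, plus strand): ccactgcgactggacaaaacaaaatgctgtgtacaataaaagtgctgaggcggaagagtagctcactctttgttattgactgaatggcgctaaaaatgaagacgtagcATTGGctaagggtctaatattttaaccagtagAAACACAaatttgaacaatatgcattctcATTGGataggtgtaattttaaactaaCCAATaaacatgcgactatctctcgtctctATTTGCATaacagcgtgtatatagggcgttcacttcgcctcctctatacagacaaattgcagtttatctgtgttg
In H1f2, the H1 box begins 112 bases and CCAAT 54 bases before the start. H2ac24 has CCAAT matches beginning 197, 158 and 100 bases before the start and none of the other 3 motifs. H2bc14 has 3 CCAAT matches, an H1 box and the octamer, which begins 25 bases before the start. A match is a run of letters, and no binding was measured here.

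Summed over all members, histone transcripts were lower in the IFNa libraries than in the PBS libraries of the same antibody arm, except in UC7-IFNa library 2. For the H1, H2A and H3 classes the 4 IgG-IFNa libraries and UC7-IFNa libraries 1 and 3 were below all PBS libraries. For H2B, IgG-IFNa library 4 (126 CPM) was as high as UC7-PBS (115 to 126 CPM), and for H4, UC7-PBS library 1 (12.9 CPM) was below IgG-IFNa (14.3 to 15.2 CPM) and UC7-IFNa library 3 (13.2 CPM). Summed over the 58 members, the level was 918, 706 and 946 CPM in IgG-PBS, 311, 347, 278 and 381 CPM in IgG-IFNa, 604, 519 and 548 CPM in UC7-PBS, and 323, 894 and 348 CPM in UC7-IFNa. The order of the groups was thus IgG-PBS with 857 ± 131 CPM (SD, n = 3), UC7-PBS with 557 ± 43.5 (SD, n = 3) and IgG-IFNa with 329 ± 44.3 (SD, n = 4), with no overlap between neighbours. UC7-IFNa (521 ± 322, n = 3) spanned this order: libraries 1 and 3 lay in the range of IgG-IFNa and library 2 in that of IgG-PBS. Fewer cells that make these RNAs and less RNA per cell cannot be told apart in bulk libraries.

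**Figure D1:**
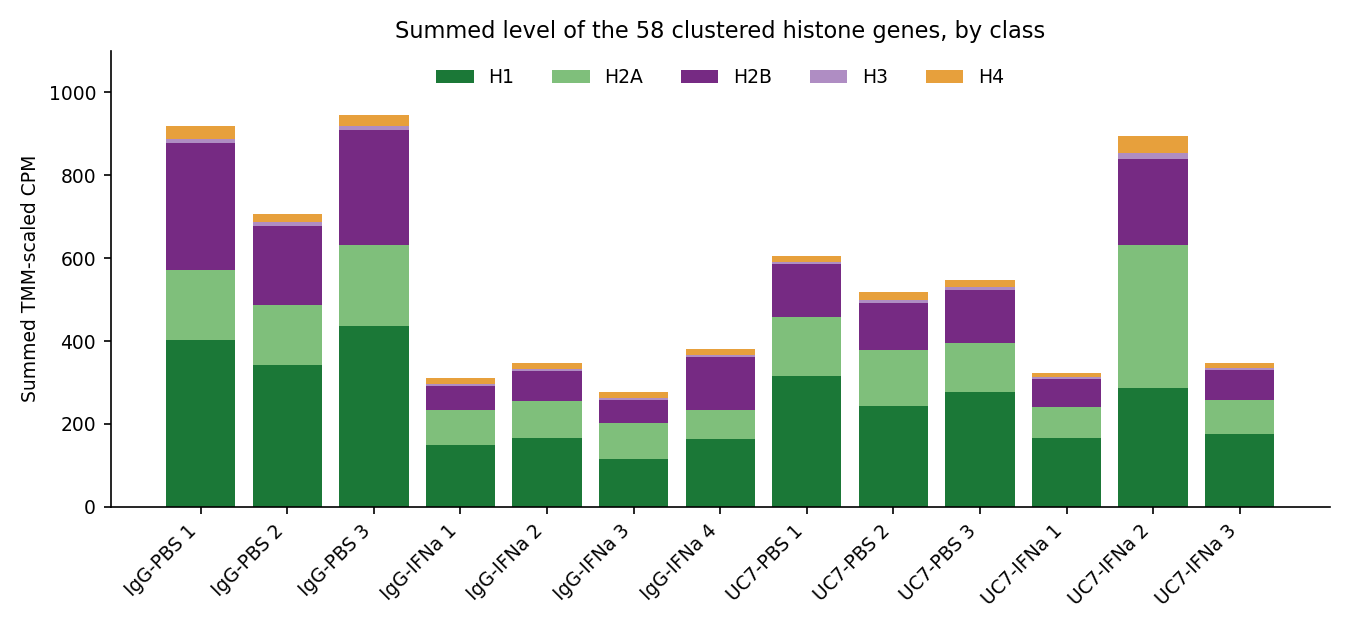
Summed level of the 58 members in each library (TMM-scaled CPM, linear axis from 0), stacked by histone class. The 6 lowest bars are the 4 IgG-IFNa libraries and UC7-IFNa libraries 1 and 3, from 278 to 381 CPM, and UC7-IFNa library 2 reaches 894 CPM.

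H1f2 and H2bc4 made up much of these sums. Without them the other members summed to 308 ± 22.8 CPM (SD, n = 3) for IgG-PBS, 154 ± 11.0 CPM (SD, n = 4) for IgG-IFNa and 250 ± 24.2 CPM (SD, n = 3) for UC7-PBS, and to 152, 492 and 158 CPM in the 3 UC7-IFNa libraries. The order of the groups was thus the same without the 2 genes that the rule names. The class sums changed, however. Without H1f2, the H1 sum of UC7-IFNa library 1 (54.74 CPM) was above that of IgG-PBS library 1 (51.45 CPM). Without H2bc4, the H2B sums were 9.17 to 11.14 CPM in IgG-IFNa and 8.98 and 8.11 CPM in UC7-IFNa libraries 1 and 3. All PBS libraries were then higher, at 11.92 CPM or more. The composition of UC7-IFNa library 2 differed from IgG-PBS at a like total: its H2A genes summed to 345 CPM, against 146 to 196 CPM in IgG-PBS, and its H1 genes to 288 CPM, against 341 to 436 CPM.

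Of the 58 members, 38 passed the expression filter and were tested among 15835 genes. By class these were 5 of 6 H1, 9 of 16 H2A, 12 of 14 H2B, 5 of 11 H3 and 7 of 11 H4 genes. The 20 others had mean levels from 0.0315 to 0.256 CPM and no more than 21.4 counts in any library, so a difference in them was not detectable at this depth. Just inside the filter by mean level were H2bc23 (0.314 CPM), H2bc3 (0.303) and H2bc7 (0.300), and just outside it H2ac22 (0.256), H2ac13 (0.175) and H3c3 (0.167). Counting split reads between near-identical copies: in 14 of the 38 tested members over 50% of all 50-base windows also occur in another gene's transcript, so the identity of the copy is uncertain there. The spans of 8 members overlap another gene of the table, H1f4 and H2bc6 each other among them.

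Among the linker histones, H1f2 (ENSMUSG00000036181, mm39 chr13:23922791-23924350) had the highest CPM. It stood at 351, 226 and 358 CPM in IgG-PBS, at 110, 122, 73.3 and 127 CPM in IgG-IFNa, at 216, 169 and 208 CPM in UC7-PBS and at 112, 213 and 125 CPM in UC7-IFNa. The 4 IgG-IFNa libraries and UC7-IFNa libraries 1 and 3 were below all others, and UC7-IFNa library 2 was within the range of UC7-PBS. Only 8.54% of its 50-base windows occur in another transcript, so this is one of the better resolved members.

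H1f0 (chr15:78912650-78914704), the replication-independent linker histone, shares no such window with another gene. Its levels were 42.4, 109 and 67.9 CPM in IgG-PBS, 36.8, 39.7, 38.0 and 34.0 CPM in IgG-IFNa, 93.4, 68.2 and 62.5 CPM in UC7-PBS, and 49.95, 60.1 and 46.0 CPM in UC7-IFNa. Within each antibody arm every IFNa library was below every PBS library, UC7-IFNa library 2 included. H1f4, another linker histone, was 3.52 to 3.64 CPM in IgG-PBS, 1.59 to 2.18 in IgG-IFNa, 2.68 to 3.71 in UC7-PBS, and 3.06, 9.87 and 2.30 in UC7-IFNa.

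Among the H2A genes, which encode nearly the same core histone, H2ac24 (chr13:22017196-22017677) had the highest CPM, and 93.1% of its windows are shared. It stood at 93.1, 84.7 and 131 CPM in IgG-PBS, at 48.8, 53.2, 45.6 and 28.9 CPM in IgG-IFNa, at 95.6, 86.4 and 73.6 CPM in UC7-PBS, and at 37.6, 222 and 41.9 CPM in UC7-IFNa. UC7-IFNa library 2 was the highest of the 13 libraries, and its mates were among the lowest. H2ac18 (chr3:96152813-96153398; 89.4% of windows shared) stood at 58.4, 47.3 and 48.9 CPM in IgG-PBS, at 26.96, 26.6, 33.7 and 34.6 CPM in IgG-IFNa, at 38.5, 36.7 and 34.5 CPM in UC7-PBS, and at 30.03, 94.6 and 34.6 CPM in UC7-IFNa. Its UC7-PBS libraries were below all IgG-PBS libraries. H2ac23 (93.5% of windows shared) was 3.44 to 4.89 CPM in IgG-PBS, 1.59 to 2.05 in IgG-IFNa, 3.39 to 4.03 in UC7-PBS, and 2.41, 12.1 and 1.56 in UC7-IFNa.

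Among the H2B genes, H2bc4 (ENSMUSG00000018102, chr13:23868182-23876891) stood at 281, 175 and 256 CPM in IgG-PBS, at 46.8, 60.9, 46.0 and 115 CPM in IgG-IFNa, at 114, 101 and 113 CPM in UC7-PBS, and at 58.8, 189 and 64.2 CPM in UC7-IFNa. All 3 IgG-PBS libraries were above all 3 UC7-PBS libraries, and IgG-IFNa library 4 was as high as UC7-PBS. H2bc24 (chr13:22017913-22021700; 88.5% of windows shared) stood at 6.06, 3.41 and 5.35 CPM in IgG-PBS, at 0.362, 1.70, 1.07 and 1.22 CPM in IgG-IFNa, at 1.82, 1.79 and 1.54 CPM in UC7-PBS, and at 0.633, 2.75 and 1.15 CPM in UC7-IFNa. H2bc14 (chr13:21906214-21906737) hardly varied, at 2.58 to 3.70 CPM over all 13 libraries and 3.02 CPM in UC7-IFNa library 2.

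The H4 and H3 genes took 3.46% and 1.35% of the member counts. H4c9 stood at 4.59 to 7.66 CPM in IgG-PBS, 3.26 to 4.29 in IgG-IFNa and 2.00 to 6.29 in UC7-PBS, and at 2.64, 8.91 and 3.94 in UC7-IFNa. H4c3 stood at 4.63 to 6.28 CPM in IgG-PBS, 2.51 to 3.51 in IgG-IFNa and 2.83 to 4.13 in UC7-PBS, and at 2.09, 9.11 and 2.43 in UC7-IFNa. In both genes UC7-IFNa library 2 was the highest of all libraries. The 27 other tested members had means from 0.300 CPM (H2bc7) to 2.98 CPM (H2ac6).

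**Figure D2:**
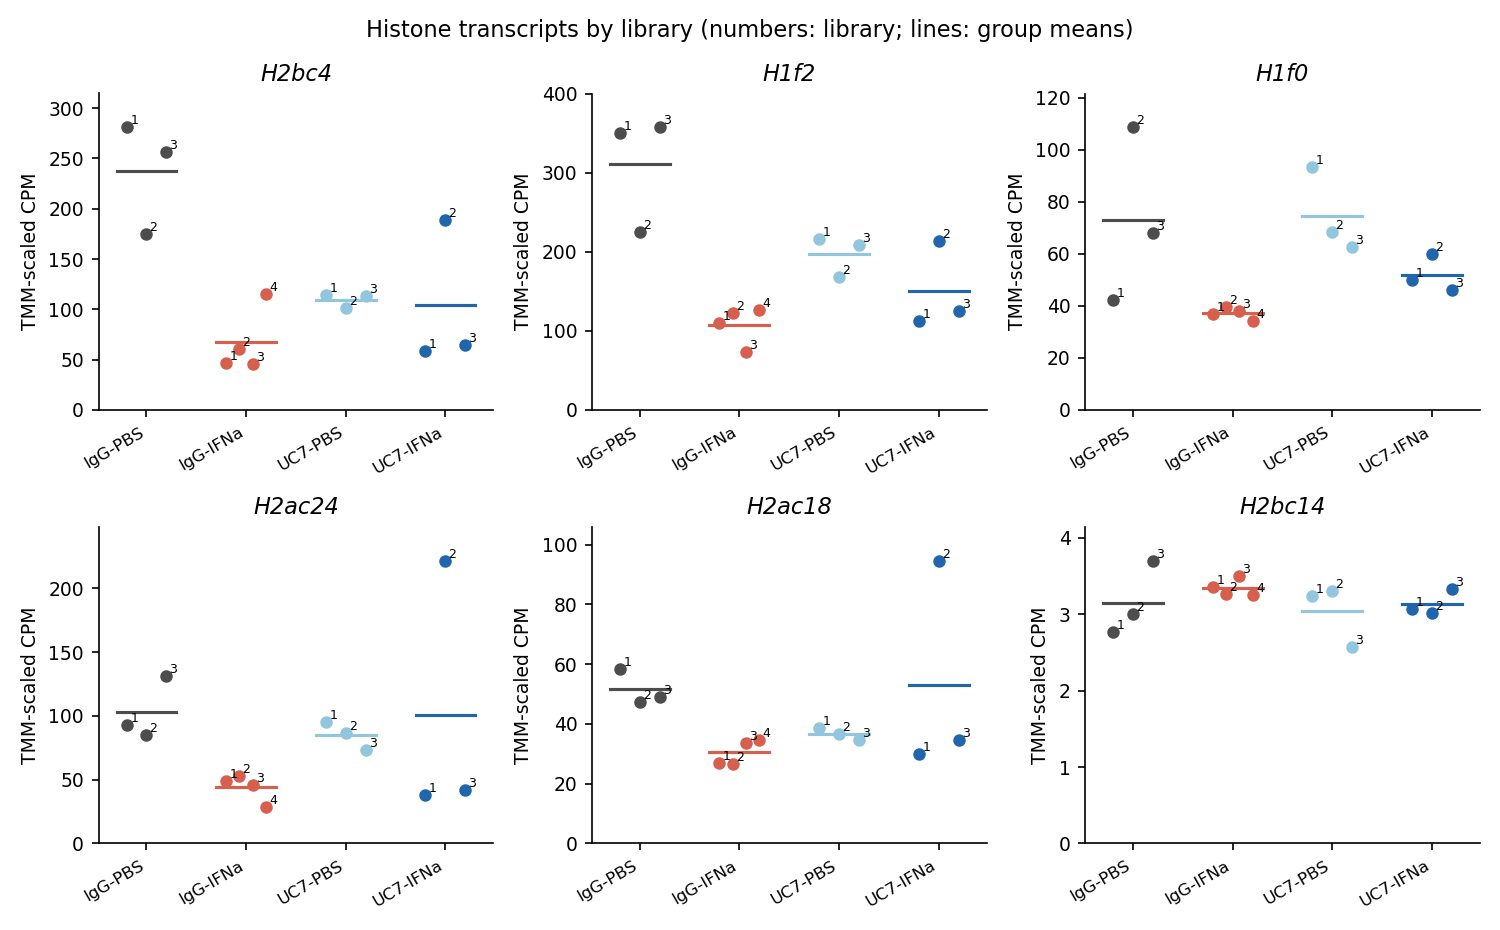
TMM-scaled CPM of 6 members in each library (points, numbered by library; horizontal lines are group means; linear axes from 0). H2bc4, H1f2, H2ac24 and H2ac18 show UC7-IFNa library 2 apart from libraries 1 and 3, H1f0 shows all 3 together at 46.0 to 60.1 CPM, and H2bc14 stays at 2.58 to 3.70 CPM.

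The comparison of IFNa with PBS after IgG is the one from which the members were chosen. The log2 fold change was below 0 in 35 of the 38 tested members, with a median of -0.98 (-0.012 over all 15835 genes). The 3 above 0 were H2bc14 (0.08), H2ac11 (0.48) and H2ac19 (0.63). The log2 fold change was -1.53 for H1f2, -1.82 for H2bc4 and -2.18 for H2bc24. The edgeR fit, at an adjusted p of 0.05, called these 3 members lower and 0.208% of all genes. With the share of Y-linked transcripts as a covariate it called 0 members, and 0 without the IgG-IFNa libraries 3 and 4 that held both Xist and Y-linked RNA (0.00632% and 0% of all genes). In 23 members every IgG-IFNa library was below every IgG-PBS library (6.91% of all genes), among them H1f0, H2ac24 and H2ac18. With UC7-IFNa library 2 left out of the shared estimate of spread, 11 of 39 members were called lower (0.814% of 16224 genes): 4 of the H1 genes (H1f0, H1f2, H1f3, H1f4), 3 H2A genes (H2ac18, H2ac23, H2ac24), 3 H2B genes (H2bc4, H2bc8, H2bc24) and H3c6. Leaving out each other library in turn gave 0 (without IgG-PBS library 3) to 3 members. Nothing is read from these counts, since this comparison chose the members. IgG-IFNa libraries were also higher in transcripts of secretory epithelium, with the 12 markers summing to 576 to 1176 CPM against 80.7 to 528 CPM in IgG-PBS. Of the 12, 2 were called higher, beside 0.619% of all genes with all 13 libraries. Marker sums of B and plasma cells were also higher in IgG-IFNa (586 to 642 CPM against 395 to 449 CPM). So were those of gamma delta intraepithelial lymphocytes (50350 to 62490 CPM against 44420 to 48830 CPM). The sums of the other marker lists, absorptive and crypt epithelium among them, overlapped between these groups. The part of these differences in the histone values was not tested.

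IFNa against PBS after UC7-13D5 is the one comparison that shares no library with it, and serves as the test of the members. It is not fully independent. The rule was chosen with earlier results of these data known, and the fit takes its estimate of spread from all 13 libraries. With all 13 libraries no member passed the test: 0 of 38 reached an adjusted p of 0.05 in edgeR (0.36% of all genes passed), 0 were under an unadjusted p of 0.05 (7.59% of all genes), and DESeq2 also called 0. The log2 fold change was below 0 in 16 members and above 0 in 22, with a median of 0.17 (0.022 over all genes). In 2 members the UC7-IFNa libraries were all below the UC7-PBS libraries (6.09% of all genes), and in 1 member all above (5.9% of all genes). H1f2 had a log2 fold change of -0.40 (standard error, SE, 0.26, adjusted p = 0.756), H1f0 one of -0.52 (SE 0.26, adjusted p = 0.684) and H2bc4 one of -0.08 (SE 0.40, adjusted p = 0.983). H2ac24 had 0.23 (SE 0.52, adjusted p = 0.952), H2ac18 had 0.54 (SE 0.31, adjusted p = 0.728) and H2bc24 had -0.23 (SE 0.52, adjusted p = 0.953). These standard errors do not show that the levels were alike.

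UC7-IFNa library 2 decided these values. Libraries 1 and 3 were both below every UC7-PBS library in 20 of the 38 members (17.4% of all genes), and library 2 was above every UC7-PBS library in 29 (37.4% of all genes). Both held at once in 16 members (8.03% of all genes). Library 2 was the highest of the 13 libraries in 20 members (26.3% of all genes), and its median ratio to the mean of its mates was 2.86 over the members and 0.986 over all tested genes. The median ratio was near the same however the models were sorted by the stem-loop search. It was 2.95 for the 14 tested members whose model ends after the stem-loop and 2.90 for the 11 whose model runs on. For the 13 with no stem-loop found it was 3.09. By class it ran from 2.14 for H1 to 3.98 for H2A. Over single members it ran from 0 for H2bc9 and 0.944 for H2bc14 to 17.7 for H3c13 and 21.1 for H2bc3, with 1.25 for H1f0, 1.80 for H1f2 and 5.58 for H2ac24. The mean level of H2bc9, H3c13 and H2bc3 was 1.01 CPM or less.

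Without that library, which leaves 2 UC7-IFNa libraries, H2ac24 fell after UC7-13D5, with a log2 fold change of -1.11 (SE 0.23, adjusted p = 0.0338, edgeR). It was the 1 of 39 members called lower, and 0.0925% of all genes were. At an unadjusted p of 0.05, 13 members were lower (6.04% of all genes). The log2 fold change was then below 0 in 34 of 39 members, with a median of -0.75 (-0.025 over all genes), and both libraries lay below every UC7-PBS library in 20 members (17.4% of all genes). H1f2 had -0.74 (SE 0.23, adjusted p = 0.18), H2bc4 had -0.84 (SE 0.35, adjusted p = 0.377) and H1f0 had -0.65 (SE 0.28, adjusted p = 0.384). H2ac18 had -0.19. The 12 secretory markers summed to 419 and 364 CPM in UC7-IFNa libraries 1 and 3, to 1236 CPM in library 2 and to 836 to 1880 CPM in UC7-PBS, with 0 of 12 called. Their part in the histone values was not tested.

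**Figure D3:**
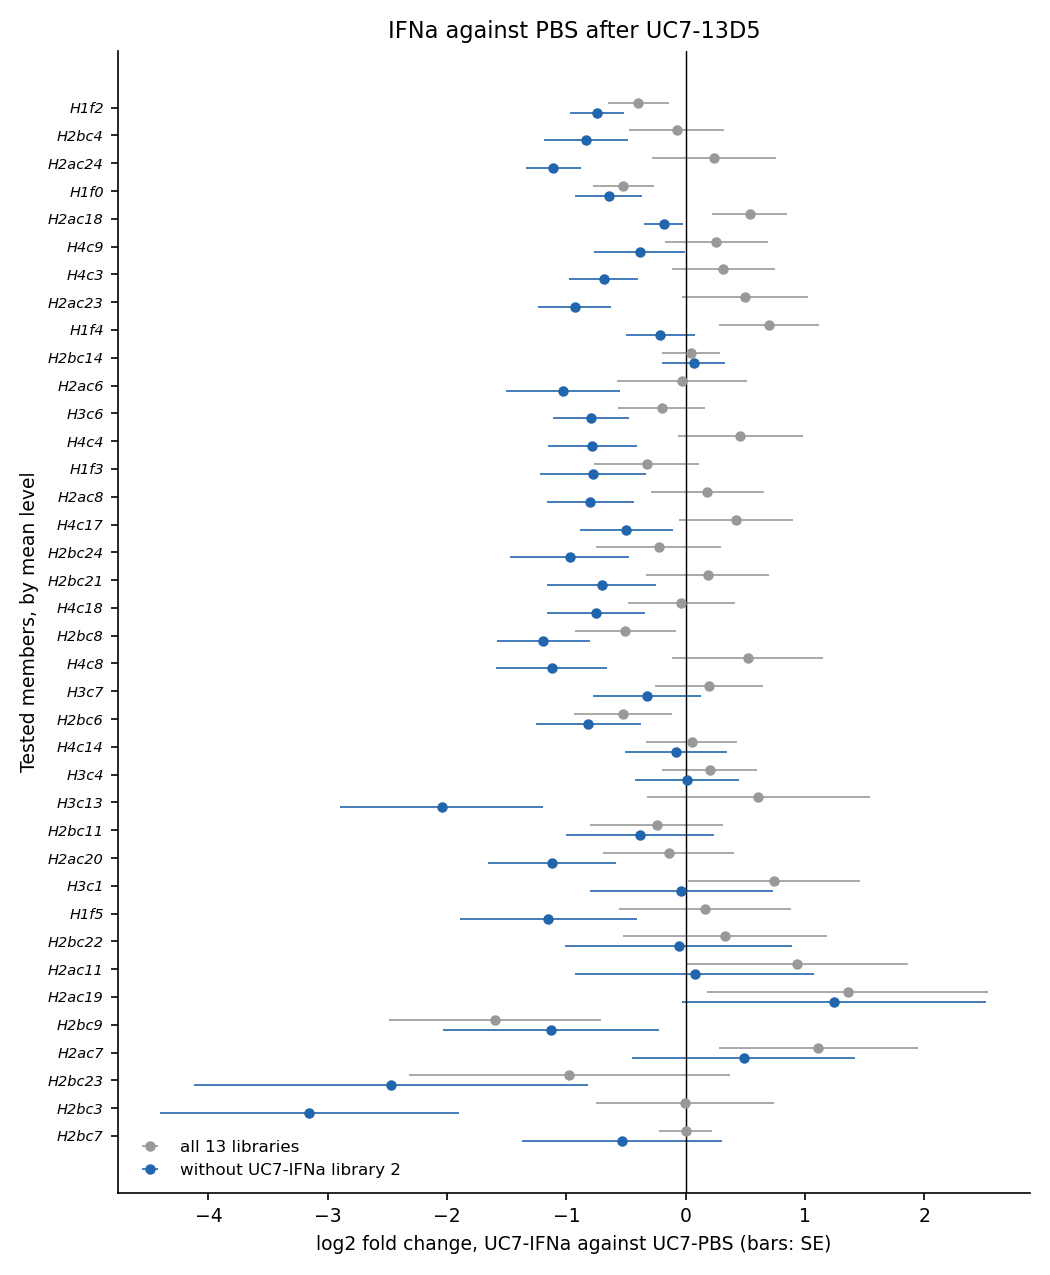
Log2 fold change of IFNa against PBS after UC7-13D5 for the 38 members tested with all 13 libraries, ordered by mean level (points; bars are 1 standard error). Grey points use all 13 libraries and have a median of 0.17, and blue points leave out UC7-IFNa library 2 and lie further left for most members.

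The share of mitochondrial transcripts split the libraries as the summed histone level did. It was 0.582% to 0.801% of counts in the 4 IgG-IFNa libraries and 0.611% and 0.618% in UC7-IFNa libraries 1 and 3, the 6 libraries with histone sums of 278 to 381 CPM. It was 0.866% to 1.73% in IgG-PBS, 1.07% to 1.47% in UC7-PBS and 1.23% in UC7-IFNa library 2, the 7 libraries with sums of 519 to 946 CPM. Within these 7 the share did not order the sums, with 0.866% at 918 CPM in IgG-PBS library 1 and 1.47% at 604 CPM in UC7-PBS library 1. The part of the mitochondrial difference in the histone values was not tested. Rn18s took 0.0866% to 0.196% of counts in the 6 libraries with low sums and 0.139% to 1.14% in the 7 others. Small non-coding RNAs took 0.103% to 0.214% and 0.174% to 1.34%. The part of either in the histone values was not tested.

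**Figure D4:**
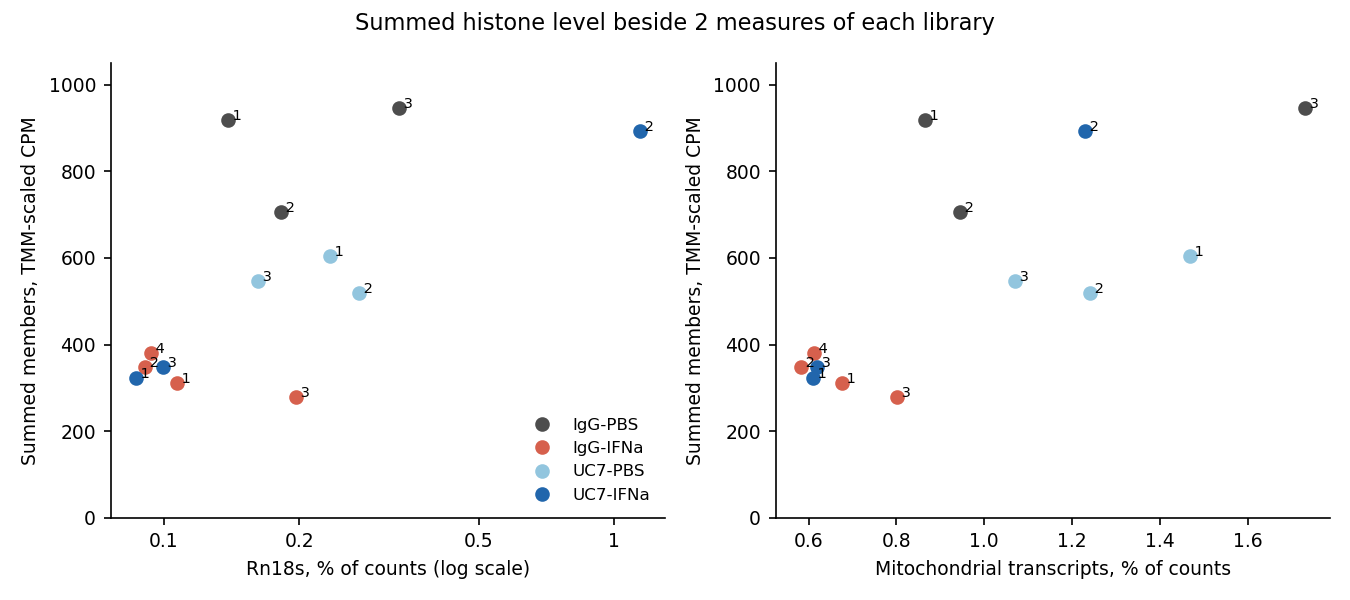
Summed level of the 58 members (TMM-scaled CPM, axis from 0) against the share of counts on Rn18s (left, log scale) and on mitochondrial transcripts (right), 1 numbered point per library. The 6 libraries with histone sums of 278 to 381 CPM are also the 6 with the lowest mitochondrial share, up to 0.801%.

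UC7-13D5 against IgG without IFNa shares the IgG-PBS libraries with the comparison that chose the members. No member passed (0 of 38 in edgeR and in DESeq2; 0.00632% of all genes passed). In all, 5 of 38 were lower at an unadjusted p of 0.05 (1.55% of all genes): the linker histone genes H1f2 and H1f3, the H2B genes H2bc4 and H2bc24, and H4c14. H2bc4 had a log2 fold change of -1.12 (SE 0.40, adjusted p = 0.696), H1f2 one of -0.66 (SE 0.26, adjusted p = 0.799) and H2bc24 one of -1.52 (SE 0.51, adjusted p = 0.599). H1f0 (0.03, SE 0.26) and H2bc14 (-0.06, SE 0.24) were near 0. The median over the members was -0.59, and in 14 of them every UC7-PBS library was below every IgG-PBS library (5.81% of all genes). With only these 2 groups in the edgeR fit, H2bc4 passed (-1.12, adjusted p = 0.0276), and 0.087% of all genes were called lower. Every other setting called 0 members. The rule named H2bc4 by its level against these same IgG-PBS libraries, so nothing is read from this call. With the share of Y-linked transcripts as a covariate the median was 0.23. Y-linked RNA was 0.206 to 0.31 CPM in IgG-PBS and 300 to 328 CPM in UC7-PBS. The covariate thus runs along the antibody here and cannot be separated from it, so nothing is read from that median. The secretory markers summed to 836 to 1880 CPM in UC7-PBS against 80.7 to 528 CPM in IgG-PBS, and their part in these values was not tested.

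UC7-13D5 against IgG with IFNa shares the IgG-IFNa libraries with the comparison that chose the members. Again 0 of 38 members passed in edgeR and DESeq2 (0.0758% of all genes passed), and 5 were higher at an unadjusted p of 0.05 (4.74% of all genes): H1f4 and the H2A genes H2ac7, H2ac18, H2ac23 and H2ac24. The median log2 fold change was 0.48 with all libraries and -0.24 without UC7-IFNa library 2, so its direction rested on that library.

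The interaction, the difference between the IFNa effects of the 2 antibody arms, contains the comparison that chose the members. No member passed (0 of 38 in edgeR and in DESeq2; 0% of all genes), and 11 were above 0 at an unadjusted p of 0.05 (1.52% of all genes). H2bc4 had 1.74 (SE 0.55) and H1f2 1.13 (SE 0.35), each with an adjusted p of 1. The median over members was 1.16 with all libraries and 0.25 without UC7-IFNa library 2. A difference between the arms in how far IFNa moves the histone genes was thus not shown.

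None of the genes listed as acting with the clustered histones passed in either arm by edgeR. Over all genes 0.827% passed after IgG and 0.36% after UC7-13D5. The shares under an unadjusted p of 0.05 were 10.9% and 7.59%. Of 50 genes of DNA replication and S phase, 0 passed in IFNa against PBS after IgG (1 at an unadjusted p of 0.05) and 0 after UC7-13D5 (2 unadjusted), with median log2 fold changes of -0.042 and -0.035. After UC7-13D5 the smallest p were those of Ccna2, cyclin A2 (-0.69, SE 0.25, adjusted p = 0.511), and Rfc2, a clamp loader subunit (0.35, SE 0.14, adjusted p = 0.586). Pcna, the replication clamp, was 76.6 to 104 CPM over all libraries. Of 28 genes of G2 and mitosis 0 passed in either arm (1 unadjusted in each), with Ccnb2, cyclin B2, at -0.81 (SE 0.29, adjusted p = 0.5). In UC7-IFNa library 2 the 50 replication genes summed to 2238 CPM (2385 to 2972 elsewhere). The 28 genes of G2 and mitosis summed there to 672 CPM (529 to 715 elsewhere, 661 and 659 in its mates). This sum hides differences between its genes. Mki67 was 10.57 CPM in library 2 (28.8 and 22.01 in its mates) and Top2a 8.073 CPM (32.66 and 29.12). Both were the lowest of all libraries. Other genes of the list were thus higher in library 2 than in its mates.

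Of 29 genes for histone mRNA transcription, 3-prime end processing and decay, 0 passed in either arm (0 unadjusted). Slbp, whose product binds the stem-loop, was 266 to 344 CPM over all 13 libraries. Of 29 histone chaperone genes 0 passed after IgG (1 unadjusted) and 0 after UC7-13D5 (3 unadjusted), with the nucleosome assembly gene Nap1l1 at -0.55 (SE 0.17, adjusted p = 0.393) after UC7-13D5. Of 11 tested histone variant genes outside the clusters, 0 passed in either arm. Unadjusted, 2 did after IgG (1 higher and 1 lower) and 3 after UC7-13D5 (all higher). The unadjusted shares of all genes were 10.9% and 7.59%. Most of these variant genes are expressed outside S phase too and are polyadenylated. Their sum was 3858 to 5141 CPM in 12 libraries and 6496 CPM in UC7-IFNa library 2. After UC7-13D5 their median log2 fold change was 0.46 with all libraries and 0.005 without library 2. Without library 2 none of these 5 lists had a member called after UC7-13D5 (0.678% of all genes). In that fit 1 variant gene was called higher after IgG (1.84% of all genes). By the fit to all libraries, 13 of 20 interferon-stimulated genes rose with IFNa after IgG (0.619% of all genes) and 17 of 20 after UC7-13D5 (0.335%).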

How the data were processed

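RNA was sequenced from 13 libraries in 4 groups, named from the sample titles. Per the submitters' processing notes the tools were Partek, STAR 2.7.8a and DESeq2 and the build mm39, with no roles given. The deposited table holds expected counts per gene from the authors (38% of its values are not whole), and totals were 19867201 to 26895876. The authors' second table holds a signal, normalized counts, for 11281 genes with 16 members, and was used for an alternative only.

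Expected counts were rounded, and filtered by edgeR's filterByExpr by group (minimum count 10), which left 15835 genes. They were scaled by TMM and fitted in 1 robust quasi-likelihood model with a coefficient per group (edgeR 4.0.16, R 4.3.3). Tests were two-sided with Benjamini-Hochberg adjustment over all tested genes and a threshold of 0.05, and the fit was tested on simulated data. The SE is the log2 fold change divided by the square root of F. Alternatives were RLE size factors, DESeq2 1.42.0, no filter, a minimum count of 50, the 2 groups alone, the replicate number as a block, limma 3.58.1 on log2 of the authors' normalized counts plus 1, each library left out, and the share of Y-linked transcripts as a covariate. The rule and the lists were chosen with earlier results of these data known. Named in full were H2bc4, H1f2, every member called in any comparison and the 10 with the highest mean CPM. From each list, up to 4 genes with the smallest p after UC7-13D5 could be named. Levels of Pcna, Slbp, Mki67 and Top2a are given besides. Transcript models were from GENCODE M21 and promoters from RefSeq, both on GRCm38, and counts were on mm39.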

Additional observations from a re-analysis of the deposited data

How the results depend on the processing

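The count of members lower with IFNa after IgG was 3. The share of all genes called lower in the same fit is given in brackets, and was 0.208% with the settings of the report. The count was 8 with DESeq2 (0.772%), 9 with only the groups of the contrast (0.664%), 1 with the replicate number as a block (0.0253%), 0 with the Y-linked covariate (0.00632%) and 0 without the IgG-IFNa libraries that held both Xist and Y-linked transcripts (0%). When 1 library was left out it was 0 to 11, with 0 without IgG-PBS library 3 (0.0123%) and 11 without UC7-IFNa library 2 (0.814%). The covariate with UC7-IFNa library 2 left out, an alternative chosen after seeing the data, gave 5 (0.148%). After UC7-13D5 the count of 0 became 1 without UC7-IFNa library 2 (0.0925%; range 0 to 1) and 1 with the covariate as well (0.142%). For UC7-13D5 against IgG with PBS it became 1 with only the groups of the contrast (0.087%). The interaction was not fitted that way, since it needs all groups. Replicate numbers did not pair the libraries (correlations of same-numbered deviations from -0.21 to 0.135), and the block changed no other count.

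Directions after UC7-13D5 were unstable. H2ac24 was -0.03 with the block, -0.27 with limma, -0.33 with the covariate, -1.11 without UC7-IFNa library 2 and -1.07 with the covariate as well. Under these last 2 settings H2ac23 was -0.93 and -0.93, H4c9 -0.39 and -0.40, H4c3 -0.69 and -0.69, H2ac18 -0.19 and -0.21, H1f4 -0.21 and -0.23. With limma H2ac23 was -0.07. H4c9 was -0.09 without UC7-PBS library 1 and H2bc14 -0.06 without UC7-PBS library 3. Without UC7-IFNa library 1 H2bc4 was 0.20 and H2bc24 0.15, and without library 3 H2bc4 was 0.17. For UC7-13D5 against IgG with IFNa, H2bc4 was -0.14 and -0.60 and H2bc24 -0.32 and -0.44 without UC7-IFNa library 2 and with the covariate as well. The cause was not tested. Over the omissions of 1 library, values after UC7-13D5 ran for H2bc4 from -0.84 to 0.20, H2bc24 from -0.97 to 0.15, H2ac24 from -1.11 to 0.62, H2ac18 from -0.19 to 0.82, H4c9 from -0.39 to 0.65, H4c3 from -0.69 to 0.66, H2ac23 from -0.93 to 0.93, H1f4 from -0.21 to 1.04 and H2bc14 from -0.06 to 0.11, and for UC7-13D5 against IgG with IFNa they ran for H2bc4 from -0.14 to 1.02 and H2bc24 from -0.32 to 0.80. Depth limits the 20 members under the filter.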
